A study of Mus musculus with 4 samples.

Results

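The genes described are 9 mouse genes of neuronal calcium handling, measured in the hippocampus: the buffers Calb1, Calb2 and Pvalb, the sensors Calm2 and Hpca, the calmodulin-binding protein gene Nrgn, the kinase subunits Camk2a and Camk2b, and the phosphatase subunit Ppp3ca. The members are every probe set (a group of short probes standing for a transcript) whose only gene symbol in the platform annotation is one of these 9. These 9 of 8251 annotated genes have 11 of the 12422 probe sets, with a pair each for Camk2a and Pvalb. All 11 lay above the filter on dim probe sets, which kept 7453 at a geometric mean signal of at least 565.

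The mice were males of 12 months, and RNA from the left hippocampus was hybridised to 4 arrays. The control group (2 arrays) was nontransgenic, on C57B6/SJL, and the APPSw group (2 arrays) was the Tg2576 line, which overexpresses amyloid precursor protein carrying the Swedish mutation. In this line a hamster prion protein gene promoter drives the transgene, so it is expressed in many brain cells. The labels give no strain for the APPSw mice and do not say whether the animals were littermates or different mice, and a p-value here reflects only how these arrays vary, part of which may be technical. Values are linear MAS 5.0 signals scaled to 2500, and the number of arrays limits the precision. In such tissue RNA, fewer cells of a type and less RNA per cell cannot be told apart.

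Calcium that enters a neuron during synaptic activity is bound by buffers and by sensors. Calmodulin, the main sensor, activates both the kinase CaMKII, which strengthens synapses, and the phosphatase calcineurin, which weakens them. Neurogranin holds calmodulin at the postsynapse while calcium is low, and hippocalcin moves to membranes when it binds calcium. In the hippocampus calbindin marks dentate granule cells and part of CA1, parvalbumin marks fast-spiking interneurons, and calretinin marks other interneurons and, in the mouse, mossy cells.

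Of the marker lists, 8 dentate granule cell genes, 8 CA1 to CA3 pyramidal cell genes and 14 interneuron genes passed the filter. So did 9 choroid plexus, 7 striatum and thalamus and 6 neocortex genes. The filter keeps a fixed share of probe sets, so these counts do not show which tissue was present. The array labelled APPSw 1 stood apart in choroid plexus markers. The 9 kept genes of that list summed to 145753 there, against 27814 and 18489 in the controls and 21788 in APPSw 2. Each member's difference is therefore also given for each APPSw array against the mean of both controls on the log2 scale, which equals the difference with the other APPSw array left out.

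Nrgn, Ppp3ca and Camk2b had lower signals on both APPSw arrays than on either control array, by 1.64-fold, 1.29-fold and 1.22-fold in the group means of log2 signal. Calm2 and Pvalb had higher signals on both APPSw arrays, by 1.36-fold for Calm2 and by 1.15-fold and 1.22-fold for the Pvalb probe sets. Hpca, Calb1, Calb2 and Camk2a overlapped between the groups, and Camk2a differed up to 2.51-fold between arrays of the same group.

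None of these differences passed the test. With limma and Benjamini-Hochberg adjustment, 0 of the 11 probe sets passed an adjusted p of 0.05, beside 0 of 7453 overall (0%). At an unadjusted p under 0.05 there was 1 member, Nrgn, which was lower, where 3.33% of all probe sets were lower and 4.72% higher at that level. Both APPSw arrays lay below both controls for 3 member probe sets (Nrgn, Ppp3ca and Camk2b), where 19% of all probe sets did so. Both lay above for 3 probe sets (Calm2 and both of Pvalb), where 22.2% did so. The remaining 5 overlapped. In all, 6 of 11 member probe sets showed no overlap, against 41.2% of all probe sets. The median log2 difference of the 11 was 0.00058, and that of all kept probe sets was 0.02.

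**Figure D1:**
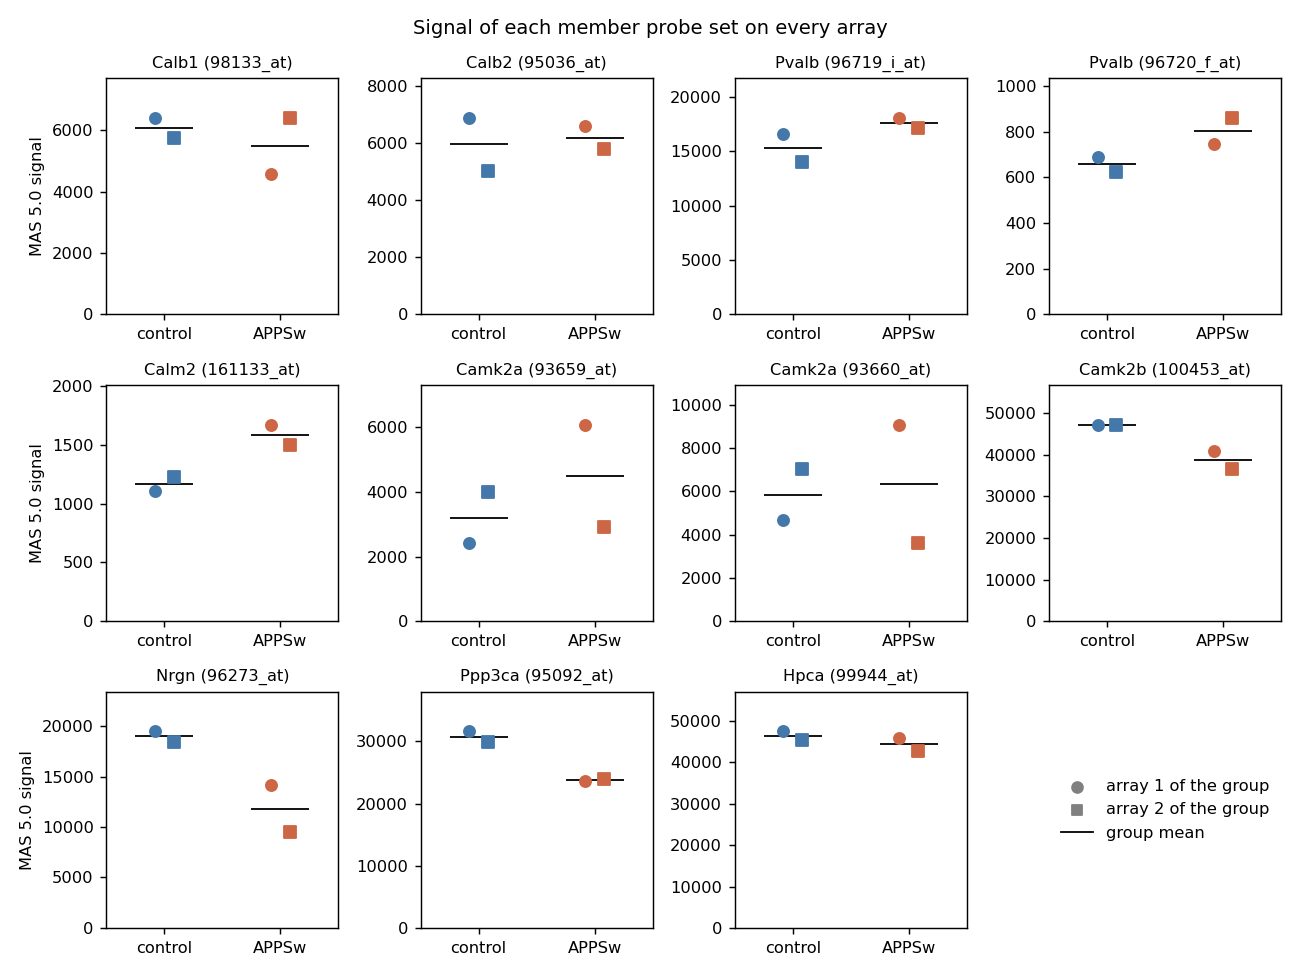
MAS 5.0 signal (linear axis from 0) of the 11 member probe sets on each of the 4 arrays, with circles for array 1 and squares for array 2 of a group and a line at the group mean. Nrgn, Ppp3ca and Camk2b lie lower on both APPSw arrays, Calm2 and both Pvalb probe sets lie higher, and the Camk2a pair is widely spread within each group.

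Nrgn encodes neurogranin, which buffers calmodulin in dendritic spines. Control 1 had a signal of 19476 and control 2 of 18466, while APPSw 1 had 14117 and APPSw 2 had 9474. Both APPSw arrays were dimmer than both controls, and the nearest arrays of the groups were 1.31-fold apart. The control mean was 18971 ± 714 (SD, n = 2) and the APPSw mean 11796 ± 3283 (SD, n = 2). The log2 difference of APPSw minus control was -0.71 (SE 0.24, unadjusted 95% interval -1.30 to -0.12), a 1.64-fold lower level. By limma the unadjusted p was 0.026 and the adjusted p was 0.603, so the difference did not pass. It was -0.43 in APPSw 1 and -1.00 in APPSw 2, so its size depended on the array. The APPSw arrays differed 1.49-fold from each other and the controls 1.05-fold.

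Ppp3ca encodes the alpha catalytic subunit of calcineurin, the phosphatase that calmodulin switches on. Its signals were 31608 and 29906 on the control arrays and 23656 and 23987 on the APPSw arrays. The groups did not overlap, and both spreads were small. The controls lay 1.06-fold and the APPSw arrays 1.01-fold apart, while the groups were 1.29-fold apart. The log2 difference was -0.37 (SE 0.17, interval -0.78 to 0.05), with an adjusted p of 0.612 by limma. It was -0.38 in APPSw 1, the array rich in choroid plexus markers, and -0.36 in APPSw 2. The part of tissue composition in this difference was not tested.

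Camk2b encodes the beta subunit of CaMKII, which ties the kinase to actin. Its signals were 47308 and 47131 on the control arrays and 40966 and 36704 on the APPSw arrays. The controls were almost equal and both APPSw arrays lay below them. The log2 difference was -0.28 (SE 0.17, interval -0.71 to 0.14), which is 1.22-fold lower, with an adjusted p of 0.655 by limma. APPSw 1 lay -0.20 and APPSw 2 -0.36 from the control mean.

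The RefSeq promoter table (GRCm38.p6) holds start sites for 4 of the 9 genes. The 250 bases before the start sites of Nrgn and Camk2b are shown because these are the 2 members lower on both APPSw arrays that the table holds. Both are on the minus strand, written 5′ to 3′, at chr9:37552746-37552995 and chr11:6065749-6065998. Capitals mark the GC box GGGCGG on either strand, with overlapping matches counted.

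Nrgn: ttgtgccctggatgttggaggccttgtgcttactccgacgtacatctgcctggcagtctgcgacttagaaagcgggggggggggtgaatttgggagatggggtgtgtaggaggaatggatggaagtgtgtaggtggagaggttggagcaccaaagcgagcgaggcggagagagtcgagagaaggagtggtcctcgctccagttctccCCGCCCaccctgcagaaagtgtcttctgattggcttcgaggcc

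Camk2b: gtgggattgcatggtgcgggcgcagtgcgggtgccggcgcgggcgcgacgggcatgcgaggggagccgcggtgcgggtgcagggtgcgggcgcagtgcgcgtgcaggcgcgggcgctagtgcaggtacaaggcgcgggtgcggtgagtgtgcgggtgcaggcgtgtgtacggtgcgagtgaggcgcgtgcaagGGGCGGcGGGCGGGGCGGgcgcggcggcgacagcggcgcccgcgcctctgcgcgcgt

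The Nrgn window holds 1 GC box and 1 CCAAT motif, and the Camk2b window holds 3 GC boxes, 2 of them overlapping, and 0 CCAAT motifs. Neither holds the TATAAA motif or the cyclic AMP element TGACGTCA. Over all 32851 windows of the same length, 32.7% hold a GC box, 33.8% CCAAT, 12.4% TATAAA and 1.55% TGACGTCA on either strand. The share of G and C is 58.4% for Nrgn and 78.4% for Camk2b, where the median window has 52.4%. These are matches of letters, and the expression data do not measure binding at them.

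Camk2a encodes the alpha subunit of CaMKII, the isoform of excitatory neurons, whose mRNA is also carried into dendrites. By the brighter of its probe sets its signals were 4670 and 7043 on the control arrays, 9094 in APPSw 1 and 3620 in APPSw 2. By the dimmer one they were 2417 and 3982 on the control arrays, 6086 in APPSw 1 and 2899 in APPSw 2. Both probe sets were highest in APPSw 1, next in control 2, and lower in the other arrays of each group, so the groups overlapped in each. The spread within a group was wide: the controls differed 1.51-fold and 1.65-fold, and the APPSw arrays 2.51-fold and 2.10-fold, by the brighter and the dimmer probe set.

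The group difference of Camk2a was therefore poorly determined. It was 0.00058 (SE 0.46, interval -1.14 to 1.14) by the brighter probe set and 0.44 (SE 0.42, interval -0.59 to 1.47) by the dimmer one, with adjusted p of 0.999 and 0.770 by limma. Against the control mean, APPSw 1 lay 0.67 and 0.97 higher, while APPSw 2 lay at -0.66 and -0.10. Camk2b did not show this spread, as its arrays differed at most 1.12-fold within a group. By the brighter probe set the difference was -0.66 without APPSw 1, 0.67 without APPSw 2 and -0.30 without control 1, so its direction depended on which arrays were used.

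Calm2 encodes calmodulin, the calcium sensor of this pathway. Its signals were 1110 and 1230 on the control arrays and 1672 and 1500 on the APPSw arrays. The groups did not overlap, with 1.22-fold between the nearest arrays. The log2 difference was 0.44 (SE 0.18, interval -0.00099 to 0.88), a 1.36-fold higher level, with an unadjusted p of 0.050 and an adjusted p of 0.612 by limma. It was 0.52 in APPSw 1 and 0.36 in APPSw 2. This probe set lay at percentile 28.4 of mean signal among kept probe sets.

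Hpca encodes hippocalcin, a calcium sensor abundant in pyramidal cells. Its signals were 47494 and 45365 on the control arrays and 45857 and 42847 on the APPSw arrays, and the groups overlapped. The log2 difference was -0.07 (SE 0.17, interval -0.49 to 0.35, adjusted p = 0.922 by limma), with -0.02 in APPSw 1 and -0.12 in APPSw 2. The interval runs from 0.714-fold to 1.28-fold, so changes of that size were not resolved with these arrays.

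The buffers gave small differences. Calb1, encoding calbindin, had signals of 6392 and 5757 on the control arrays, 4591 in APPSw 1 and 6413 in APPSw 2. APPSw 1 was the lowest and APPSw 2 the highest of the 4 arrays. The log2 difference was -0.16 (SE 0.22, interval -0.71 to 0.39, adjusted p = 0.850 by limma), with -0.40 in APPSw 1 and 0.08 in APPSw 2. Calb2, encoding calretinin, had signals of 6892 and 5042 on the control arrays and 6592 and 5802 on the APPSw arrays. Both APPSw arrays lay between the controls, and the difference was 0.07 (SE 0.22, interval -0.47 to 0.61, adjusted p = 0.941 by limma), with 0.16 in APPSw 1 and -0.02 in APPSw 2.

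Pvalb encodes parvalbumin. Its brighter probe set had signals of 16611 and 13999 on the control arrays and 18079 and 17100 on the APPSw arrays. Its dimmer one had 691 and 624 on the control arrays and 749 and 862 on the APPSw arrays. Both placed the APPSw arrays above the controls, by 1.03-fold and 1.08-fold between the nearest arrays. The log2 differences were 0.21 (SE 0.18, interval -0.25 to 0.66) and 0.29 (SE 0.18, interval -0.16 to 0.74), with adjusted p of 0.760 and 0.660 by limma. Relative to the controls, APPSw 1 and APPSw 2 were at 0.25 and 0.17 by the brighter probe set and at 0.19 and 0.39 by the dimmer one, so they ranked the APPSw arrays differently. Both were designed on the same sequence record, so they do not give independent support.

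**Figure D2:**
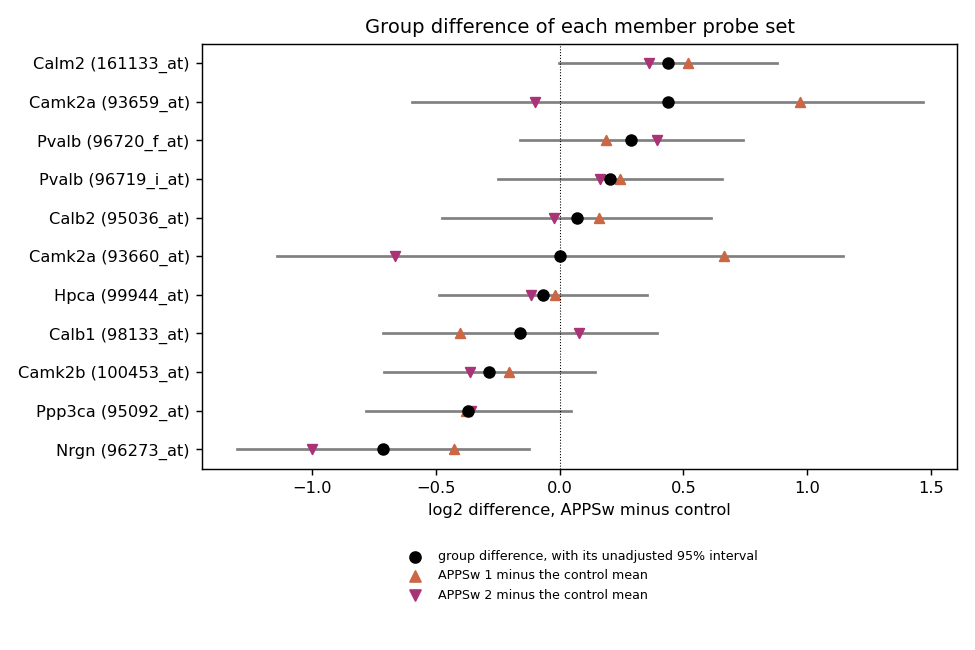
Log2 difference of APPSw minus control (black points) for the 11 member probe sets, with limma's unadjusted 95% interval (grey bars) and each APPSw array against the mean of the controls (triangles). Only the interval of Nrgn leaves out 0, and the triangles of both Camk2a probe sets, Calb1 and Calb2 fall on both sides of 0.

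Other genes of the same pathways were read from lists written without regard to direction but with earlier results of these data known. Each gene was read by 1 probe set, the brightest kept. A listed gene counts as on the array if it is the only symbol of a probe set. By limma 0 of the listed genes passed the adjusted threshold, beside 0 of 5670 genes (0%). Over all genes both APPSw arrays lay below both controls for 19.6% and above them for 21.3%, and the median log2 difference was 0.01.

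In the list of calmodulin and its neuronal buffers, 7 of 9 genes were on the array. The 6 kept had a median of -0.32. Both APPSw arrays lay below both controls for 4 of them, Nrgn, Gap43, Marcksl1 and Marcks, and above for Calm2. Gap43, the growth cone protein that binds calmodulin through a motif like that of neurogranin, had signals of 8474 and 9827 on the control arrays and 7588 and 8205 on the APPSw arrays, a difference of -0.21 (SE 0.18). Marcks and Marcksl1, membrane proteins that bind calmodulin and actin, had differences of -0.47 (SE 0.25) and -0.42 (SE 0.18). The remaining gene, Pcp4l1, had -0.17 (SE 0.25) and is named after its values were seen. Pcp4 lay below the filter, with signals of 43.2 in both controls, 47.2 in APPSw 1 and 466 in APPSw 2.

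In the list of calcineurin and its regulators, 10 of 18 genes were on the array and 9 were kept, with a median of -0.23. Both APPSw arrays lay below both controls for 5, and the median of the 8 genes other than Ppp3ca was -0.08. Ppp3r1, the regulatory subunit, had signals of 64075 and 64344 on the control arrays and 59568 and 50024 on the APPSw arrays, a difference of -0.23 (SE 0.18, adjusted p = 0.722 by limma). Ppp3cb, the beta catalytic subunit, had 4567 and 5280 on the control arrays and 3962 and 4061 on the APPSw arrays, a difference of -0.29 (SE 0.18, adjusted p = 0.655 by limma). Ppp3cc, the gamma catalytic subunit, overlapped between groups, with 0.07 (SE 0.19). Thus the alpha and beta catalytic subunits and the regulatory subunit each lay lower on both APPSw arrays, and none passed the test.

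Fkbp1a, the immunophilin through which the drug FK506 blocks calcineurin, had signals of 58202 and 56934 on the control arrays and 38476 and 39263 on the APPSw arrays. The difference was -0.57 (SE 0.17), with an unadjusted p of 0.015 and an adjusted p of 0.599 by limma. The fifth gene below both controls was Rcan1, a calcineurin inhibitor, at -0.30 (SE 0.20). The 3 above both controls were Nfatc3 at 0.90 (SE 0.24), Nfatc2 at 0.26 (SE 0.18) and Rcan3 at 0.25 (SE 0.19). Nfatc2 and Nfatc3 encode transcription factors that calcineurin dephosphorylates. These 4 are named after their values were seen, and Nfatc3 had dim signals of 417 and 592 on the control arrays and 1045 and 828 on the APPSw arrays.

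Of the CaM kinases and their activators, 7 of 19 genes were on the array and 5 were kept, with a median of 0.00058. Mylk, myosin light chain kinase, had 0.23 (SE 0.18), Cask, a synaptic scaffold with a kinase-like domain, had -0.25 (SE 0.18), and Camk4, a nuclear CaM kinase, had 0.25 (SE 0.23). Camk2d lay below the filter, with signals of 60.4 and 222 on the control arrays and 121 and 263 on the APPSw arrays. Mylk lay above both controls on both APPSw arrays, Cask below, and Camk4 overlapped. Camk4 had dim signals of 603 and 456 on the control arrays and 714 and 547 on the APPSw arrays.

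Of the neuronal calcium sensors, 7 of 15 genes were on the array and 6 were kept, with a median of -0.01. Vsnl1, encoding visinin-like protein, had signals of 45132 and 50765 on the control arrays and 48126 and 61249 on the APPSw arrays, a difference of 0.18 (SE 0.20). Hpcal1, a close relative of Hpca, had 0.04 (SE 0.17) and Hpcal4 -0.25 (SE 0.17). Ncs1, neuronal calcium sensor 1, had 463 and 722 on the control arrays, 1181 in APPSw 1 and 726 in APPSw 2, a difference of 0.68 (SE 0.33). Guca1a, the last kept gene, had -0.29 (SE 0.22) and is named after its values were seen. Its signals were dim, at 717 and 724 on the control arrays and 698 and 497 on the APPSw arrays. The list thus had members on either side of 0.

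**Figure D3:**
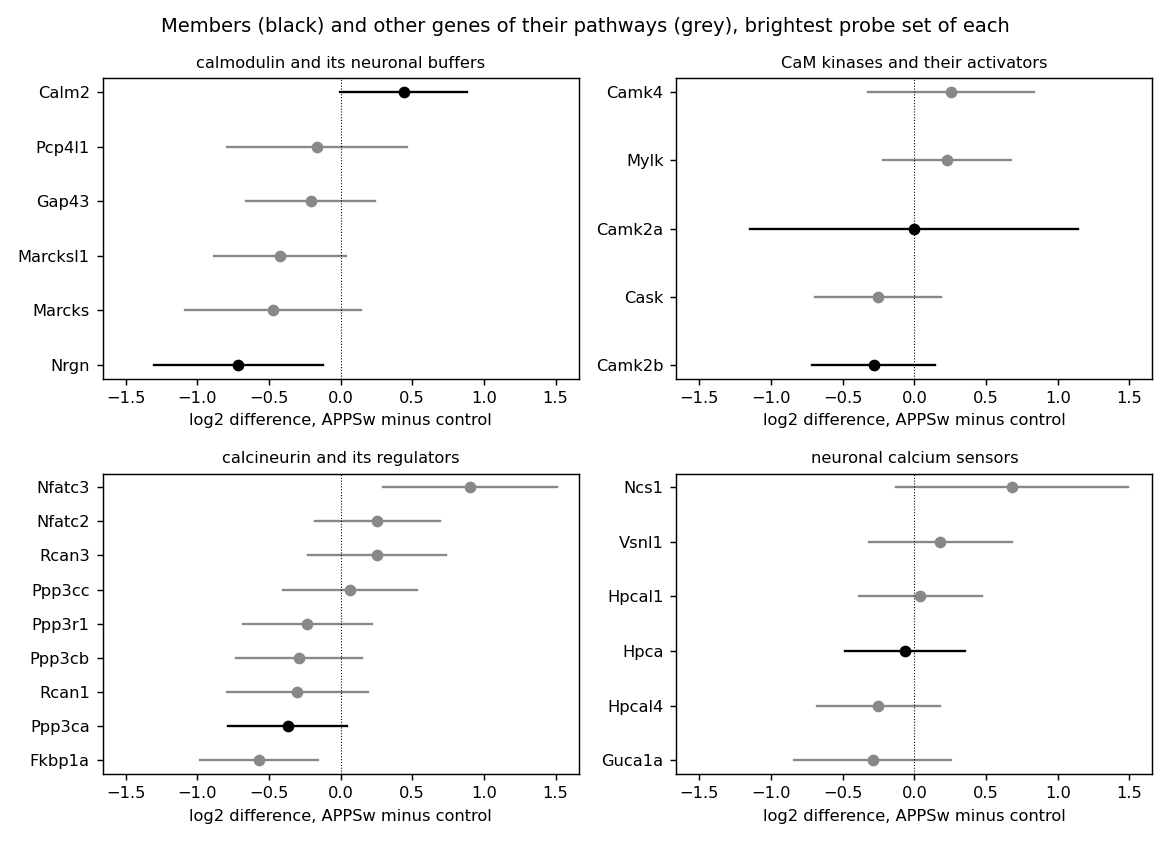
Log2 difference of APPSw minus control with limma's unadjusted 95% interval, for the kept genes of 4 pathway lists (1 panel each, brightest probe set of a gene), members in black and other genes in grey. In the list of calmodulin and its neuronal buffers, all kept genes but Calm2 lie below 0. The calcineurin list runs from Fkbp1a at -0.57 to Nfatc3 at 0.90.

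Of the calcium buffers and S100 proteins, 26 of 31 genes were on the array and 20 were kept, with a median of -0.07. Both APPSw arrays lay above both controls for 4 of the 20 and below for 3. Anxa6, annexin A6, had -0.08 (SE 0.23) and S100a13 had -0.12 (SE 0.17). The 3 below were S100a13, Rcn2 and Calu. The 4 above were Pvalb, Sri, S100a6 and Casq1. Some of these separations were slight, with the nearest arrays of the groups 1.0005-fold apart for Casq1, 1.005-fold for Calu and 1.01-fold for S100a13. Rcn2, Calu, Sri, S100a6 and Casq1 are named after their values were seen, and their differences ran from -0.45 for Rcn2 to 0.36 for Sri.

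Of the calcium pumps, stores and calmodulin-regulated enzymes, 20 of 29 genes were on the array and 16 were kept, with a median of -0.05. Rasgrf1, a Ras exchange factor that calmodulin activates, had signals of 15022 and 14710 on the control arrays and 10405 and 9831 on the APPSw arrays. Its difference was -0.56 (SE 0.17), with an unadjusted p of 0.017 and an adjusted p of 0.599 by limma. Atp2a2, the calcium pump of the endoplasmic reticulum, had -0.34 (SE 0.17), Pde1b, a calmodulin-dependent phosphodiesterase, -0.29 (SE 0.24), and Ryr2, a calcium release channel, -0.01 (SE 0.26). Over all 6 pathway lists, 62 genes with the members, 3 were lower and 3 higher at an unadjusted p under 0.05, and 3% and 3.88% of all genes were. The 3 lower were Nrgn, Fkbp1a and Rasgrf1, and the 3 higher were Nfatc3, Pde1a and Adcy8, the last 2 named after their values were seen.

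Markers of the cells that carry these transcripts had the following values, and their part in the members' values was not tested. The 8 kept CA1 to CA3 pyramidal cell markers all lay below 0 (Wfs1 at 0.0085 after quantile normalization), with a median of -0.32 in APPSw 1 and -0.33 in APPSw 2, and 5 of them lay below both controls on both APPSw arrays. Their summed signal was 69669 and 70664 on the control arrays and 48014 and 53011 on the APPSw arrays. Nptx1, neuronal pentraxin 1, had the signals 11059 and 15508 on the control arrays and 4231 and 8422 on the APPSw arrays, while Wfs1, the CA1 marker wolframin, had 7201 and 9233 on the control arrays and 8016 and 8250 on the APPSw arrays. The other 3 of the 8, Wfs1 among them, overlapped. The 8 kept oligodendrocyte markers also all lay below 0, with a median of -0.29 against -0.28 for the pyramidal markers. On both APPSw arrays 4 of these 8 lay below both controls. Over all genes, 2749 of 5670 lay below 0, and 19.6% lay below both controls on both APPSw arrays.

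The 7 kept dentate granule cell markers other than Calb1 summed to 16191 and 13219 on the control arrays and to 12761 and 12094 on the APPSw arrays. Their median was -0.20 in APPSw 1 and -0.17 in APPSw 2, and the controls differed by 0.36 from each other. Calb1, which lay at 0.08 in APPSw 2, did not share the lower value there. The 14 interneuron markers had a median of -0.10 in APPSw 1 and 0.03 in APPSw 2. Both APPSw arrays lay below both controls for 4 of them (Sst, Gad1, Cort and Dlx2), above for 1 (Slc32a1), and 9 overlapped. Cort and Dlx2, at -0.65 and -0.55, are named after their values were seen. Dlx2 had dim signals of 717 and 787.8 on the control arrays and 456.5 and 577.7 on the APPSw arrays. Of the 4 brightest, Cck overlapped, with a difference of 0.04 (SE 0.18). Sst, the somatostatin gene, had 35160 and 35242 on the control arrays and 24148 and 29479 on the APPSw arrays. Gad1, which makes GABA, had a difference of -0.14 (SE 0.17), with the nearest arrays of the groups 1.008-fold apart. Slc32a1, the vesicular GABA transporter, had 12763 and 13306 on the control arrays and 15105 and 16358 on the APPSw arrays.

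Neocortex markers had a median of 0.19 in APPSw 1 and 0.49 in APPSw 2, and summed to 16906 and 19094 on the control arrays and to 22882 and 26339 on the APPSw arrays. The choroid plexus median was 1.96 in APPSw 1 and 0.10 in APPSw 2. Camk2a was also highest in APPSw 1. Control 1 minus control 2 was 0.35 for the choroid plexus median and -0.59 and -0.72 for the brighter and dimmer Camk2a probe sets. The part of the choroid plexus markers in the Camk2a values was not tested. Oligodendrocyte markers had medians of -0.09 and -0.43, and astrocyte markers -0.07 and -0.22, in APPSw 1 and 2. The medians in APPSw 1 and 2 were -0.19 and -0.04 for striatum and thalamus markers, -0.01 and 0.20 for microglia, and 0.05 and 0.13 for endothelium and blood.

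**Figure D4:**
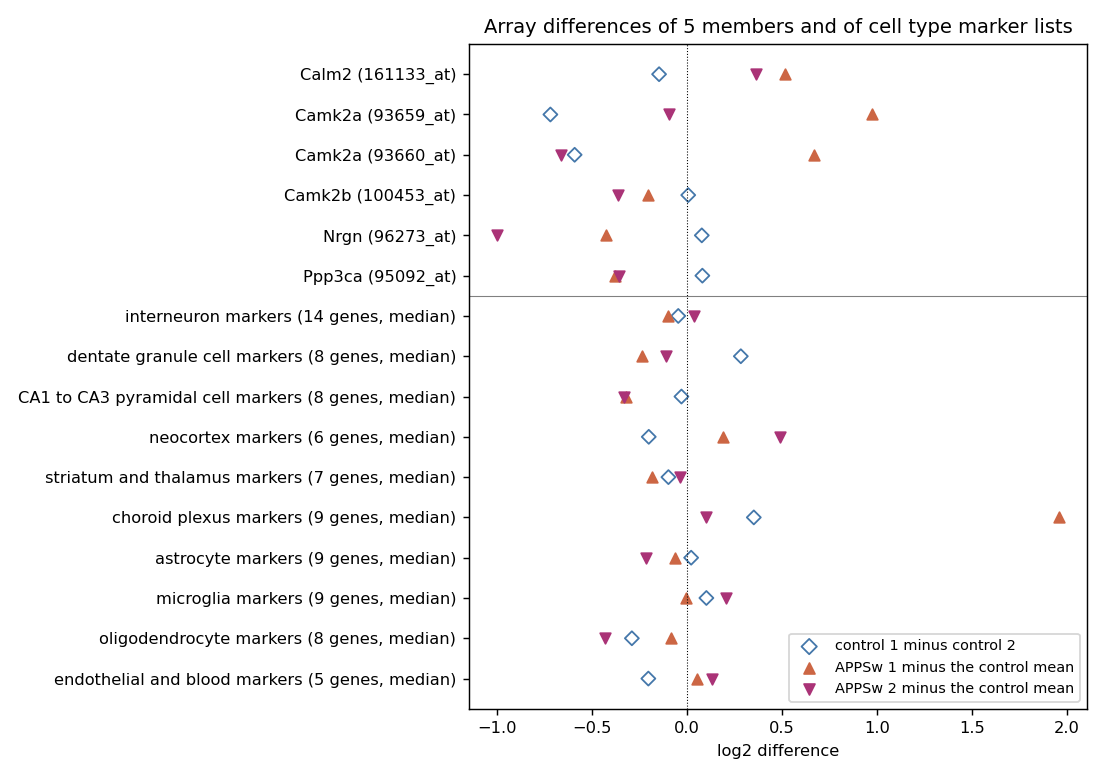
Log2 difference of control 1 minus control 2 (open diamonds) and of each APPSw array minus the mean of the controls (triangles), for 5 member genes (above the line) and for the median of each cell type marker list (below it). CA1 to CA3 markers sit at -0.32 and -0.33 on the APPSw arrays, choroid plexus markers stand out at 1.96 in APPSw 1, and Camk2a swings between arrays of the same group.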

How the data were processed

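The file holds 1 linear intensity for each probe set and array, computed by the authors in Affymetrix MAS 5.0 with a scaling target of 2500, per the labels. How RNA was labelled and scanned is not stated there. After removal of 66 manufacturer's control probe sets and of those below the 40th percentile of mean log2 signal, 7453 of 12422 were left. Array medians were 926 and 988 for the controls and 1033 and 1013 for APPSw 1 and 2, so both APPSw medians lay above both control medians. Of the 12422, 10833 have 1 gene symbol, 396 several and 1193 none.

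The main test was limma 3.58.1 (R 4.3.3) on log2 signals, two-sided, with adjusted p over the 7453 and 2 residual degrees of freedom. Each variance was drawn by limma towards a value shared by all kept probe sets, with 3.70 prior degrees of freedom. The SE, intervals and p-values use the variance so drawn. For 2 against 2 arrays the smallest two-sided p of an exact permutation test is 0.333. On simulated data for this comparison (7453 probe sets), 88.2% of 4-fold and 11.8% of 2-fold changes were recovered. Named genes were all members, fixed relatives of them, and the 4 brightest kept genes of each list, of which those that bear on the members are given. The members and lists were chosen with earlier results of these data known. The alternatives were quantile normalization, other filters, a floor or pseudocount of 250, a replicate block, an intensity trend, averaged probe sets per gene and each array left out.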

Additional observations from a re-analysis of the deposited data

How the results depend on the processing

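With 2 arrays a group, only large changes could be called. By limma the count of probe sets past the threshold was 0 among the members, the lists and all probe sets under each alternative fit of all probe sets, where 402 to 816 probe sets had an unadjusted p under 0.05. The adjusted p of the members ran from 0.423 to 0.9995 over the alternatives. Nrgn (-1.00 to -0.43), Ppp3ca (-0.41 to -0.33), Camk2b (-0.36 to -0.20), Hpca (-0.12 to -0.02), Calm2 (0.36 to 0.52) and both Pvalb probe sets (0.08 to 0.39) kept their direction in every alternative that tested them. The other filters, the floor, the replicate block and the intensity trend leave a tested member's difference as it was. For Nrgn, Ppp3ca, Camk2b, Calm2 and Pvalb the groups did not overlap, so leaving out 1 array could not turn the sign. For these genes only quantile normalization and the pseudocount could have turned it. Averaging the probe sets of a gene was run for the list medians only. The filter at the 60th percentile left out Calm2 and the dimmer Pvalb probe set. An unadjusted p under 0.05 was reached by 0 members with no filter, without control 1 and without control 2, and by 3 with the intensity trend. With an array left out, the brighter Camk2a probe set ran from -0.66 (without APPSw 1) to 0.67 (without APPSw 2) and was -0.30 without control 1, and the dimmer one ran from -0.10 (without APPSw 1) to 0.97 (without APPSw 2). Calb2 ran from -0.16 (without control 2) to 0.29 (without control 1) and was -0.02 without APPSw 1, and Calb1 from -0.40 (without APPSw 2) to 0.080 (without APPSw 1), so these 4 probe sets changed sign. The members' median ran from -0.0996 without control 2 to 0.16 without APPSw 2, and was -0.07 with the stricter filter and 0.02 after quantile normalization. Counts of members without overlap were recomputed with each array left out, an alternative chosen after seeing the data: 3 to 5 lay below and 4 to 5 above, where 30.6% to 35.2% and 35.5% to 39.7% of all probe sets did. Members that did not overlap with all arrays cannot overlap with fewer, so these counts say nothing about stability. Quantile normalization turned the sign of Ppp3cc, Rcn1 and Ryr2 among the 62 pathway genes. The labels share replicate numbers, but deviations of same-numbered arrays correlated at -0.02 over the probe sets, and with the number as a block 0 members and 0 probe sets passed. The members' median was 0.00058 with the replicate block, as a block holding 1 array of each group leaves every difference unchanged.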
